A study of Mus musculus with 13 samples.

Results

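The ErbB receptors and their ligands were examined as 10 genes of the count table: the receptors Egfr, Erbb2, Erbb3 and Erbb4, and the ligands Areg, Ereg, Tgfa, Btc, Hbegf and Nrg1. They were chosen by name as the receptor family of the HER2/Neu oncogene and its best known ligands. All 10 were among the 24421 gene symbols of the table, and all 10 passed the filter on low counts in both fits.

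RNA was sequenced from 13 mammary samples of female MMTV-HER2/Neu mice (on FVB/N, line TgN (MMTV-HER2/neu) 202Mul/J, with the genotype labelled wild type), so glands and tumors alike carried the transgene. It consists of a rat HER2/Neu cDNA under the long terminal repeat promoter of mouse mammary tumor virus, which is active in mammary epithelium, and tumors arise spontaneously. The groups were cancer-free mammary glands of untreated mice (n = 2), primary tumors of untreated mice (n = 3), primary tumors of mice given stavudine (n = 3), tumors that recurred after 17-DMAG (n = 3), and tumors that recurred after 17-DMAG in mice kept on stavudine (n = 2). Stavudine, a nucleoside inhibitor of reverse transcriptase, was in the drinking water at 1 mg/mL (about 200 mg/kg per day). It was given from 2 months of age or from the appearance of tumors. 17-DMAG, an inhibitor of the chaperone HSP90, was injected at 20 mg/kg 3 times per week. By the paper's account, 17-DMAG was kept up until the regrown tumor met its size limit. Recurrence and ongoing exposure to 17-DMAG therefore cannot be told apart in any comparison of recurrent with primary tumors. Ages at sampling were not given in the sources used here, and nothing stated whether tumors of a group came from different mice, so p-values measure the spread between these samples.

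The ErbB receptors are tyrosine kinases of the cell surface that pair when a ligand binds. Egfr binds Egf, Tgfa, Areg and others, Erbb3 and Erbb4 bind neuregulins such as Nrg1, and Btc, Hbegf and Ereg bind both Egfr and Erbb4. Erbb2 has no known ligand of its own and is the preferred partner of the others, Erbb3 has little kinase activity and signals through its partners, and the ErbB2 protein depends on HSP90 for its stability. In the mammary gland, Areg carries the estrogen signal for duct growth, and Erbb4 with Nrg1 is tied to lobule formation and milk secretion.

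Library totals ran from 39921388 to 56887708 counts. Levels are given as CPM, counts scaled to a common library size, and the floor of detection, set at 3 counts per library, corresponded to 0.0527 to 0.0752 CPM before normalization. All 10 luminal epithelial markers (Krt8, Krt18, Krt19, Epcam, Cdh1, Cldn3, Cldn7, Muc1, Elf3, Esrp1) were detected in each library. Their summed levels were 1990 to 2494 CPM in glands and 1665 to 3128 CPM in tumors. The mean log2 CPM of these markers, which weighs each gene alike, was 6.80 and 7.29 in glands. It was 7.26 in recurrent 17-DMAG replicate 1 and 6.19 to 6.61 in the other tumors, below both glands. Gland 2 was rich in milk protein RNA and had a normalization factor of 0.493. Recurrent 17-DMAG replicate 1 stood apart with the highest fibroblast marker sum of any tumor (6422 CPM, all 10 genes above each other tumor). Recurrent 17-DMAG plus stavudine replicate 2 had the highest skeletal muscle marker sum of any tumor (6030 CPM, 15 of 16 genes above each other tumor). In bulk RNA, fewer cells of a type and less RNA per cell cannot be told apart.

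Promoter sequences (250 bases before to 50 after the transcription start, RefSeq, GRCm38.p6, 5′ to 3′ on the strand of the gene) are shown for 4 members. Erbb2 is shown because the transgene uses a viral promoter in place of this stretch, Egfr and Tgfa because they passed the test against glands, and Areg because it was at or near the floor in most libraries. Capitals mark matches, on either strand, to an ETS core (AGGAAG, or CTTCCT on the other strand), a cAMP response element (TGACGTCA) or a TATA box (TATAAA). The stretches are chr11:98412234-98412533 for Erbb2, chr11:16751953-16752252 for Egfr, chr6:86194972-86195271 for Tgfa and chr5:91139349-91139648 for Areg, all on the plus strand.
Erbb2: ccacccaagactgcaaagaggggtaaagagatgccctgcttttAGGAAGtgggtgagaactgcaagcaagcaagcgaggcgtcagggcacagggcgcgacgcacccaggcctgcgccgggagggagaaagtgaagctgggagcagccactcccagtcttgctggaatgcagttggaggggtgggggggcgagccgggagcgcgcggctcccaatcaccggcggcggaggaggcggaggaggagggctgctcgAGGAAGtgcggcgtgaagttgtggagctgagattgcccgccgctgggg
Egfr: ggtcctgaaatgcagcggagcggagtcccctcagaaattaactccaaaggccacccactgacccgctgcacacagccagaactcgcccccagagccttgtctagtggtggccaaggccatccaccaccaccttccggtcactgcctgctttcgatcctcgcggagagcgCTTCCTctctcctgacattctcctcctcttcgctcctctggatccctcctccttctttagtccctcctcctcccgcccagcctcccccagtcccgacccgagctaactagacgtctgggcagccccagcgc
Tgfa: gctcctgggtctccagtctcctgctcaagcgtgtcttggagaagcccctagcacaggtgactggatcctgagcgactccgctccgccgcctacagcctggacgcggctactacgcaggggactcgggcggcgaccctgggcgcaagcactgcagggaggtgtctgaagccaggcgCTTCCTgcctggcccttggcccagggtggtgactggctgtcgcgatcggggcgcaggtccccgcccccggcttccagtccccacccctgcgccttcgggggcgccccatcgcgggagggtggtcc
Areg: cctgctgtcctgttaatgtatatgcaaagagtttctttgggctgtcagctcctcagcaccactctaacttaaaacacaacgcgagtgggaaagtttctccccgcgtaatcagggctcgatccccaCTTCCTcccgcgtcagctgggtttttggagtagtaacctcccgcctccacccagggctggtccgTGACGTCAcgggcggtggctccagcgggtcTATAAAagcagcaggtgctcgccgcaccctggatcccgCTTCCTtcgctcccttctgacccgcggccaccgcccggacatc
Each of these stretches held an ETS core, as did 35.35% of 32851 promoters of that length. Of the members searched, the cAMP response element and the TATA box were found in Areg alone, where 1.79% and 13.62% of all promoters held them. They began 61 and 31 bases before the start. GC content was 66% in Erbb2, 62.33% in Egfr, 70.67% in Tgfa and 59.33% in Areg, against a median of 52.67%, with 21, 15, 24 and 21 CpG sites against a median of 7. Promoters of Erbb4 and Btc were searched as well and held none of these 3 motifs, and the other members were not searched. No heat shock element core (GAANNTTC), STAT site (TTCNNNGAA) or AP-1 site (TGANTCA) was found in these 6 stretches, where 7.86%, 8.298% and 7.808% of all promoters held one. None of these motifs overlapped another. A match is a run of letters and was not tested as a binding site.

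Per length, the receptors and ligands spanned a wide range of levels in tumors. Levels in CPM per kilobase of exon, as medians of 11 tumors, were 1930 for Erbb2, 63.5 for Erbb3, 14.1 for Egfr and 5.88 for Erbb4. Erbb2 exceeded Erbb3, and Erbb3 exceeded Egfr, in 11 of 11 tumors without overlap of their ranges. Among ligands, Tgfa had the highest median at 13.8 CPM per kilobase, next to Egf at 13.3 and Nrg2 at 9.24, which are EGF-family ligands outside the 10 genes. Egfr was above Tgfa in 5 of 11 tumors, so the order of this receptor and its ligand was not separable from their spread. Btc stood at 3.05, Hbegf at 1.43 and Nrg4, a further ligand of Erbb4, at 1.07 CPM per kilobase. Nrg1 (0.142), Areg (0.0735), Epgn (0.0677) and Ereg (0.0337) closed the order, and each pair of neighbours from Egfr downward overlapped in range. Nrg3 had 0 counts in 13 of 13 libraries, which allows up to 0.0527 to 0.0752 CPM per library before normalization.

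**Figure D1:**
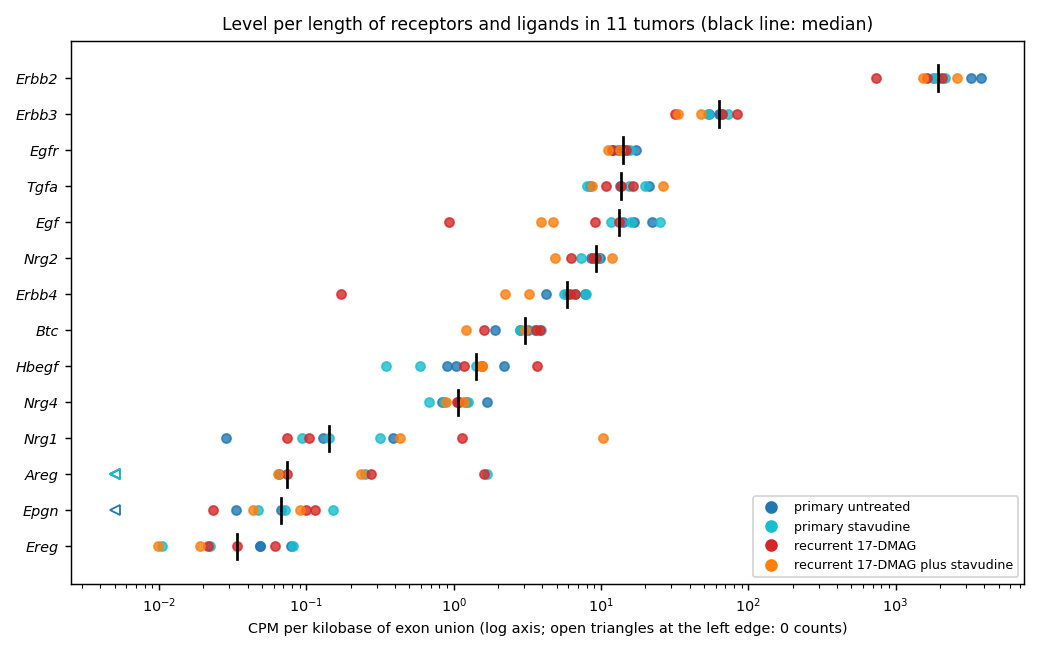
Level per length (CPM per kilobase of exon union, log axis) of 14 ErbB receptors and EGF-family ligands in 11 tumors, with points colored by group, black lines at medians and open triangles for 0 counts. Erbb2, with a median of 1930, and Erbb3, with a median of 63.5, stand above all others, and Areg, Epgn and Ereg lie at the bottom.

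Erbb2 (chromosome 11, 98412470 to 98437716, plus strand, 27 exon blocks, GRCm38) was among the most abundant RNAs in each library. Reads of the rat transgene can count to it, and they were not told apart from mouse Erbb2. Erbb2 stood at 11205 and 12894 CPM in the glands, at 9673, 19073 and 16189 CPM in primary untreated tumors and at 9054, 10827 and 9107 CPM in primary stavudine tumors. In recurrent 17-DMAG tumors Erbb2 was at 3698, 8187 and 10276 CPM, and in recurrent 17-DMAG plus stavudine tumors at 13078 and 7711 CPM. The 4 tumor groups overlapped with each other. Both glands lay within the ranges of primary untreated and recurrent 17-DMAG plus stavudine tumors, and above each primary stavudine and recurrent 17-DMAG tumor. The highest tumor was 5.16 times the lowest, and the lowest, recurrent 17-DMAG replicate 1, was less than the next by a factor of 2.09. Erbb2 took 1.26% of the counts of gland 1 (95% Wilson interval 1.257 to 1.264) and 0.635% of those of gland 2 (0.633 to 0.637). In tumors the share ran from 0.392% (0.390 to 0.393) in recurrent 17-DMAG replicate 1 to 1.90% (1.901 to 1.908) in primary untreated replicate 2. It ranked 4 or 5 among all genes by counts in 10 of 11 tumors and 13 in recurrent 17-DMAG replicate 1. These intervals cover counting error only and take each count as independent.

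The genes on either side of Erbb2, which are often amplified with it in human breast cancer, were far below it. Mien1, the nearest gene downstream, ran from 26.3 to 84.5 CPM in tumors and stood at 38.5 and 64.9 CPM in glands. Grb7, an adaptor that binds ErbB receptors, ran from 18.6 to 57.4 CPM in tumors, Stard3, a lipid transfer protein, from 22.4 to 29.4 CPM and Pgap3, which acts on lipid anchors of proteins, from 12.97 to 22.0 CPM. Pnmt, which makes adrenaline, was at 0 to 9 counts per tumor. Tcap, a muscle sarcomere protein, ran from 0 to 12.7 CPM, and its 2 highest tumors, primary untreated replicate 1 (12.1 CPM) and recurrent 17-DMAG plus stavudine replicate 2 (12.7 CPM), were also those with the highest skeletal muscle marker sums (4565 and 6030 CPM). Ikzf3, a lymphoid transcription factor, ran from 0.245 to 3.04 CPM in tumors. Per length, Erbb2 was 20.1 to 43.3 times its highest neighbour in each library. Since transgene reads can count to Erbb2, this ratio describes RNA levels and does not measure copy number of the locus. Erbb2 and Mien1 share 9 exon bases on opposite strands.

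**Figure D2:**
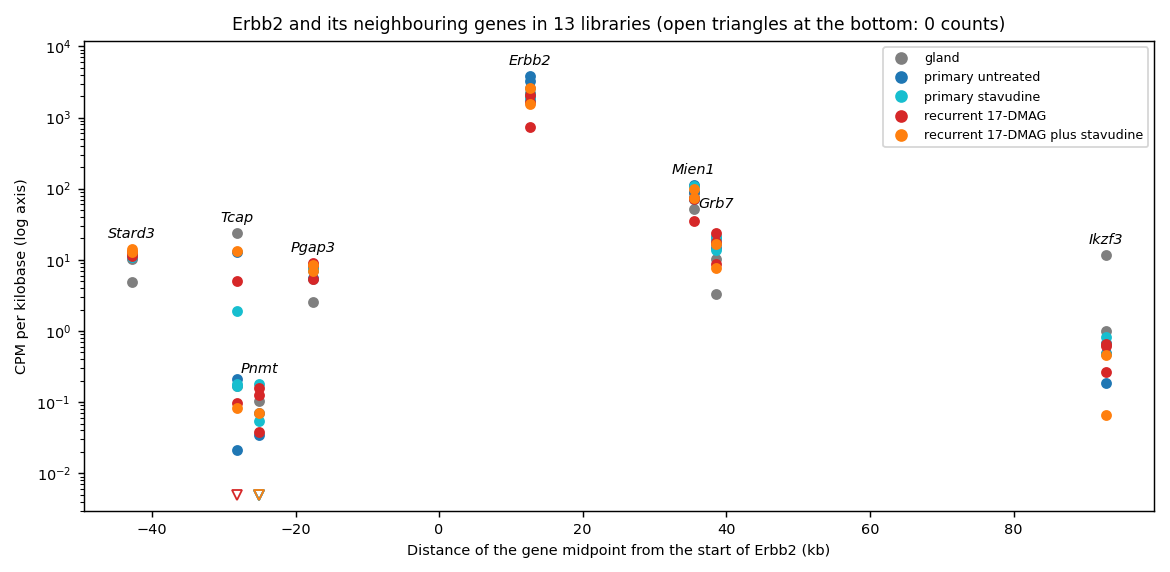
Level per length (CPM per kilobase, log axis) of Erbb2 and 7 neighbouring genes against the distance of each gene's midpoint from the start of Erbb2 (kb), 1 point per library, colored by group, with open triangles for 0 counts. Erbb2 lies 20.1 to 43.3 times above the highest neighbour of each library, and Mien1, the highest of them in each library, lies downstream.

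Of the other receptors, Egfr varied least. Egfr (chromosome 11, 16752203 to 16918158, plus strand, 28 exon blocks) was at 111 and 86.9 CPM in glands, 142, 132 and 191 CPM in primary untreated and 154, 173 and 165 CPM in primary stavudine tumors. Egfr was at 130, 162 and 155 CPM in recurrent 17-DMAG tumors, and at 148 and 122 CPM in those with stavudine. Each tumor lay above both glands, while the tumor groups lay close together: the SD over tumors was 0.19 on the log2 scale, against a median of 0.28 over the 12692 genes whose mean log2 CPM reached 1.

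Erbb3 (chromosome 10, 128567523 to 128589652, minus strand, 28 exon blocks) was at 229 and 122 CPM in glands, 382, 389 and 325 CPM in primary untreated and 320, 397 and 441 CPM in primary stavudine tumors. Among recurrences Erbb3 was at 191, 505 and 397 CPM after 17-DMAG, and at 286 and 200 CPM after 17-DMAG with stavudine. Recurrent tumors thus held both the highest and the 3 lowest Erbb3 levels among tumors, and only recurrent 17-DMAG replicate 1 and recurrent 17-DMAG plus stavudine replicate 2 fell below gland 1. Per length, Erbb3 was 2.68 to 5.68 times Egfr in tumors.

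Erbb4 (chromosome 1, 68032186 to 69108059, minus strand, 28 exon blocks) was at 40.6 and 8.31 CPM in glands, 71.1, 51.6 and 93.9 CPM in primary untreated and 67.3, 95.5 and 80.8 CPM in primary stavudine tumors. In recurrent 17-DMAG tumors Erbb4 was at 2.08, 80.1 and 74.0 CPM, and with stavudine at 26.8 and 39.3 CPM. Of the receptors, Erbb4 varied most among tumors, with an SD of 1.58 on the log2 scale. The low value was again recurrent 17-DMAG replicate 1, where Erbb4 had 90 counts, less than the next tumor by a factor of 12.9. This receptor set was therefore uneven in that tumor: relative to the median of tumors on the log2 scale, Erbb4 was lower by 5.06, Erbb2 by 1.39 and Erbb3 by 1.00, and Egfr by 0.25.

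**Figure D3:**
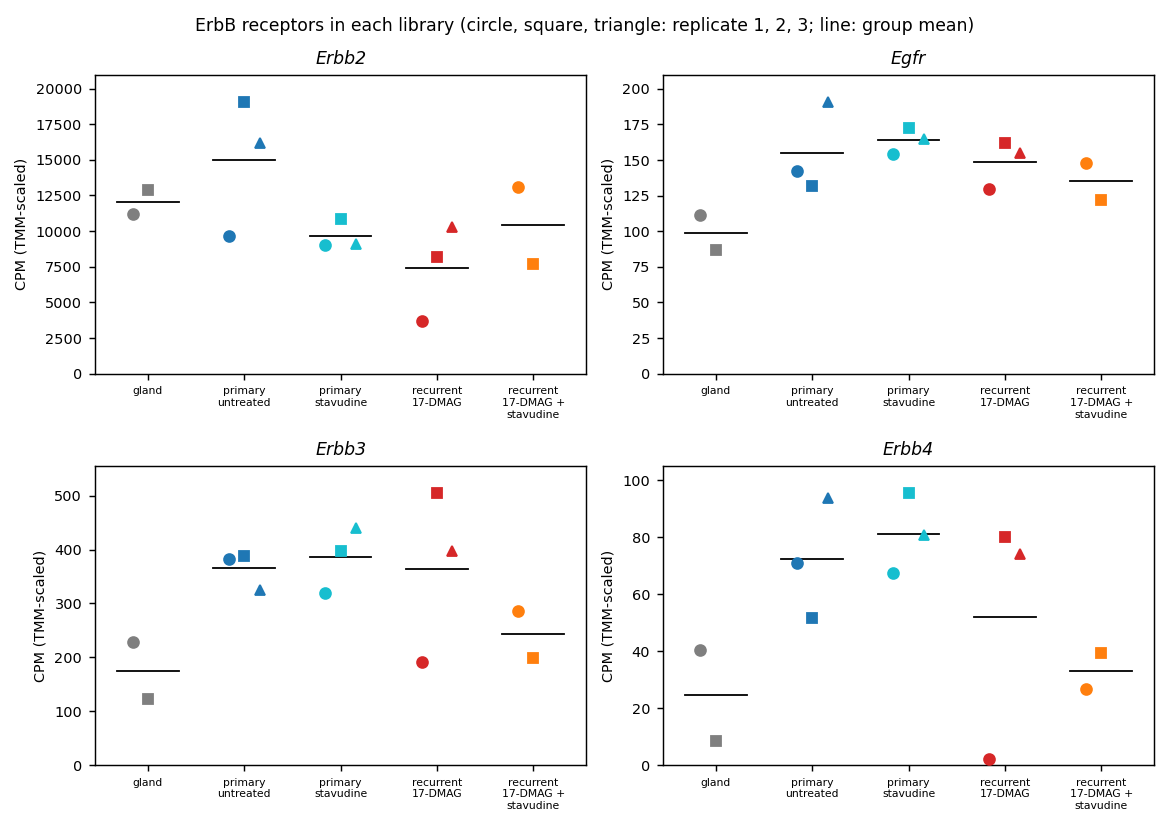
CPM of the 4 ErbB receptors in each library by group, on linear axes from 0, with lines at group means and marker shapes for replicate numbers. Egfr lies in a band of 122 to 191 CPM in tumors, above both glands, and recurrent 17-DMAG replicate 1 (red circle) is the lowest tumor for Erbb2, Erbb3 and Erbb4.

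Tgfa (chromosome 6, 86195223 to 86275719, plus strand, 6 exon blocks), an Egfr ligand, was the most abundant ligand of the 10 genes. It stood at 20.8 and 7.07 CPM in glands, 96.0, 60.6 and 38.1 CPM in primary untreated and 89.6, 36.2 and 70.5 CPM in primary stavudine tumors. Tgfa was at 49.2, 62.3 and 74.9 CPM in recurrent 17-DMAG tumors, and at 39.3 and 119 CPM in those with stavudine. Each tumor was above both glands, and within each tumor group but recurrent 17-DMAG the highest tumor was more than 2 times the lowest. Tgfa shares 118 exon bases with Gm43917, a gene model on the opposite strand, and the strand setting of the counting was not given in the sources used here.

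Btc (chromosome 5, 91357261 to 91402994, minus strand, 6 exon blocks) was at 6.81 and 1.82 CPM in glands, 8.16, 5.48 and 9.16 CPM in primary untreated and 8.13, 11.2 and 10.2 CPM in primary stavudine tumors. In recurrent 17-DMAG tumors Btc was at 4.61, 11.03 and 10.5 CPM, and with stavudine at 8.76 and 3.47 CPM. Its lowest tumors were recurrent 17-DMAG plus stavudine replicate 2 and recurrent 17-DMAG replicate 1, as for Erbb3.

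Hbegf (6 exon blocks), a heparin-binding ligand released at the cell surface, was at 1.51 and 3.46 CPM in glands, 2.45, 5.26 and 2.15 CPM in primary untreated and 1.40, 0.827 and 3.40 CPM in primary stavudine tumors. In recurrent 17-DMAG tumors Hbegf was at 8.75, 3.73 and 2.81 CPM, and with stavudine at 3.62 and 3.71 CPM. The highest value was that of recurrent 17-DMAG replicate 1, 1.66 times the next tumor.

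Nrg1 (chromosome 8, 31814551 to 32884029, minus strand, 18 exon blocks) is a neuregulin that binds Erbb3 and Erbb4. It was at 2.99 and 15.0 CPM in glands. In primary untreated tumors it was at 1.02, 0.224 and 3.05 CPM, and in primary stavudine tumors at 0.737, 2.50 and 1.12 CPM. Nrg1 was at 8.94, 0.581 and 0.818 CPM in recurrent 17-DMAG tumors, and at 3.42 and 81.2 CPM in those with stavudine. The last value, in recurrent 17-DMAG plus stavudine replicate 2, rested on 3981 counts and was 9.08 times the next tumor, recurrent 17-DMAG replicate 1. Skeletal muscle markers, all 16 of them detected, summed to 6030 CPM in that tumor. They summed to 4565 CPM in primary untreated replicate 1, which had Nrg1 at 1.02 CPM, and to 6392 CPM in gland 2, which had it at 15.0 CPM, and their part in the Nrg1 level was not tested. Nrg1 shares 442 exon bases with Gm26578, a noncoding gene model on the opposite strand.

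Areg and Ereg, both Egfr ligands, lie side by side on chromosome 5 with Btc (Areg 91139599 to 91148432, Ereg 91074622 to 91093646, both plus strand). Both were at or near the floor in most libraries. Areg had 162 counts (3.27 CPM) in gland 1 and 2 in gland 2, then 4, 0 and 0 in primary untreated, 89, 14 and 0 in primary stavudine, 84, 4 and 16 in recurrent 17-DMAG and 4 and 14 in recurrent 17-DMAG plus stavudine tumors. Of 13 libraries, 9 had more than 3 Areg counts, and 89 counts, the most in a tumor, equalled 2.05 CPM. A count of 0 allows up to 3 counts. Before normalization this is 0.0611 and 0.0648 CPM in the 2 primary untreated tumors and 0.0665 CPM in the primary stavudine tumor concerned. Ereg had 6 and 0 counts in glands and 2 to 16 counts in tumors, at most 0.337 CPM, and shares 141 exon bases with Gm19610 on the opposite strand. In this table counts of 1 to 20 were mostly even (median over libraries 73.4%, against 50.4% of counts over 100), and whether both reads of a pair were counted was not given in the sources used here.

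**Figure D4:**
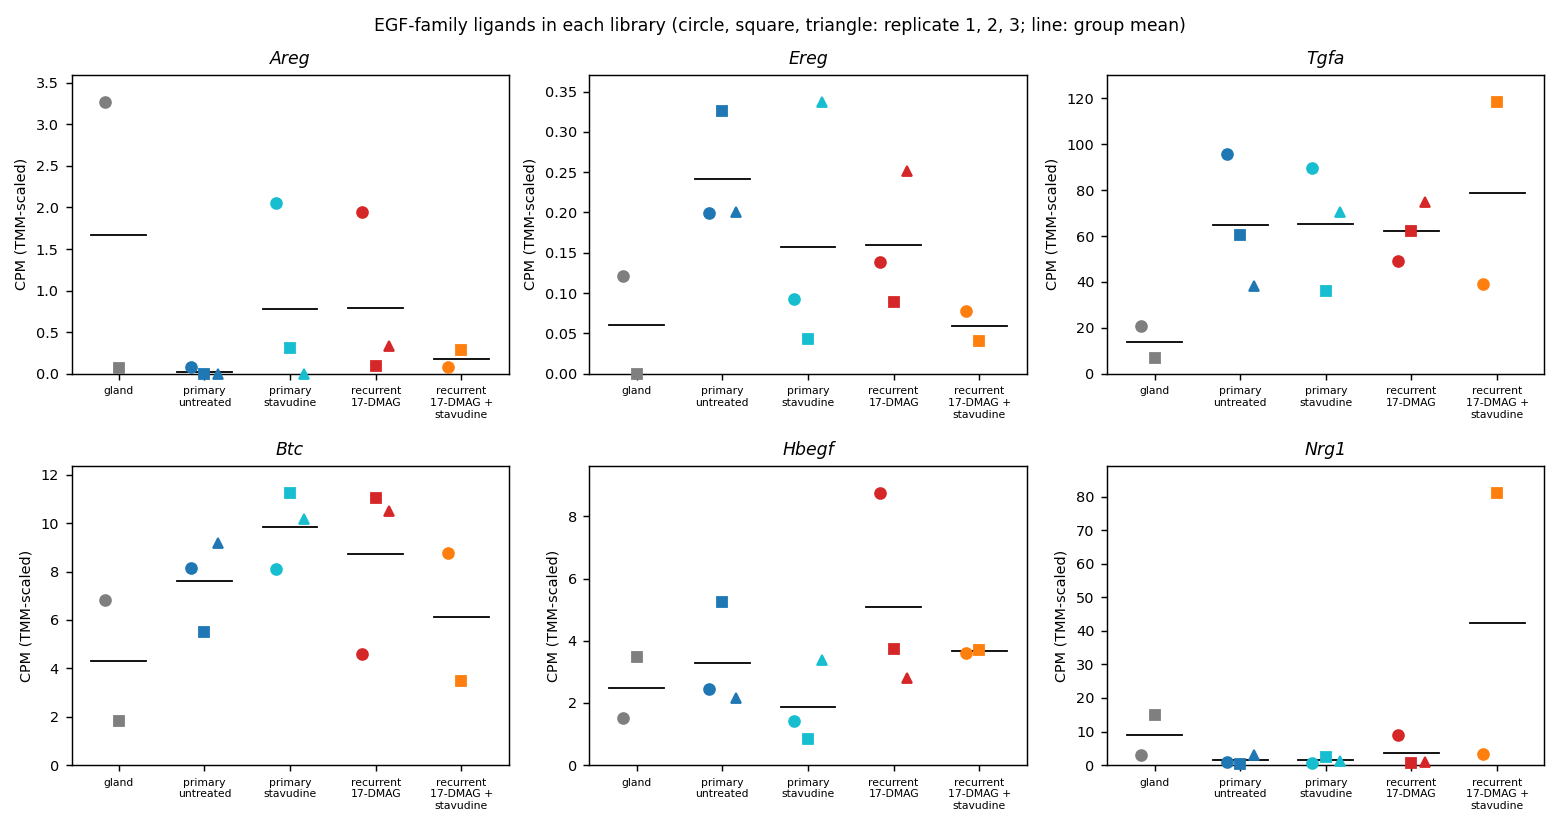
CPM of the 6 ligands in each library by group, on linear axes from 0 that differ between panels, with lines at group means and marker shapes for replicate numbers. Tgfa is above both glands in each tumor, Nrg1 reaches 81.2 CPM in 1 tumor and at most 8.94 CPM in the others, and Areg and Ereg stay under 3.3 and 0.34 CPM.

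The comparison of tumors with glands asks how receptor and ligand RNA differed between tumors and the tissue they arise in. Egfr and Tgfa were higher in tumors, and the other 8 members did not pass the test. Tgfa was at 64.9 ± 29.2 (SD, n = 3), 65.4 ± 27.0 (n = 3), 62.1 ± 12.9 (n = 3) and 78.9 ± 56.0 CPM (n = 2) in the tumor groups in the order above, against 13.95 ± 9.74 CPM (n = 2) in glands. The tumors were higher by a log2 value of 2.27 (SE 0.60, adjusted p = 0.0377 by edgeR's quasi-likelihood test with Benjamini-Hochberg adjustment). Egfr was at 155 ± 31.6, 164 ± 9.26, 149 ± 16.8 and 135 ± 18.0 CPM against 99.1 ± 17.3 CPM, which is 0.60 on the log2 scale (SE 0.17, edgeR adjusted p = 0.0463). The 2 calls among 10 members stand beside a background of 10.4% called of 17135 genes (1785), of which 275 (1.6% of those tested) were higher in tumors. Egfr and Tgfa were also the 2 members whose tumors and glands did not overlap, against 11.5% of genes tested.

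Both calls were lost when some single libraries were left out. Without gland 2 the edgeR adjusted p was 0.277 for Egfr and 0.279 for Tgfa, with log2 fold changes of 0.52 and 1.78, and without gland 1 the adjusted p values were 0.0226 and 0.0186. Egfr was called in 3 of these 13 fits, those without gland 1, recurrent 17-DMAG replicate 1 or primary untreated replicate 2. Its edgeR adjusted p was 0.0505 to 0.0756 in the 9 other fits without a tumor. Tgfa was called in 7, and its call was lost without gland 2, primary untreated replicate 2, primary stavudine replicate 1 or 3, or recurrent 17-DMAG replicate 2 or 3 (edgeR adjusted p of 0.0547 to 0.0606 for the tumors). The range of log2 fold changes over the 13 fits was 0.52 to 0.83 for Egfr and 1.78 to 3.30 for Tgfa. Glands and tumors also differed in adipocyte markers (1009 and 1287 CPM in glands, 8.01 to 169 CPM in tumors) and basal and myoepithelial markers (456 and 1218 CPM against 55.0 to 387 CPM), and in milk protein RNA (28051 and 764680 CPM against 4603 to 23365 CPM), whose part in these differences was not tested.

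Erbb3 was the next member, at 0.93 on the log2 scale (SE 0.34, edgeR adjusted p = 0.106). It was called by DESeq2 (adjusted p = 0.0398), without gland 1 (edgeR adjusted p = 0.0429) and without recurrent 17-DMAG replicate 1 (edgeR adjusted p = 0.0266). Erbb2 differed by -0.23 on the log2 scale (SE 0.36, edgeR adjusted p = 0.691), and by 0.31 when primary untreated tumors alone were set against glands. Erbb4 was at 1.20 (SE 0.95), Btc at 0.87 (SE 0.52), Hbegf at 0.40 (SE 0.61), Ereg at 1.00 (SE 1.00), Nrg1 at -1.10 (SE 1.14) and Areg at -2.81 (SE 1.35) on the log2 scale, none of them called. Without gland 1 the directions of Hbegf (-0.04) and Areg (1.74) turned and Btc was called (2.16, edgeR adjusted p = 0.0396), and without gland 2 that of Nrg1 turned (0.57). The median log2 fold change was 0.74 over the 10 members and -0.02 over all genes tested, and 7 of 10 members were positive.

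Stavudine in primary tumors was compared with untreated primary tumors to ask whether the drug alone moved these genes. No member was called by edgeR, DESeq2 or limma voom. By edgeR, 0 of 16870 genes were called (0%), although 634 had an unadjusted p under 0.05, against 17 by DESeq2 and 0 by limma voom. Of the members, 1, Areg, had an unadjusted p under 0.05 (0.0393, adjusted p = 1.00), which rests on 89, 14 and 0 counts against 4, 0 and 0. Erbb2 was at 9662 ± 1009 CPM (SD, n = 3) with stavudine and 14978 ± 4815 CPM (n = 3) without, which is -0.65 as a log2 difference (SE 0.39, edgeR adjusted p = 1.00). None of the 10 members had groups that did not overlap, against 10.8% of genes tested. The edgeR adjusted p was 1.00 for each of the 10, and 6 of 10 log2 differences were positive.

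Recurrent 17-DMAG tumors were compared with primary untreated tumors to ask what differed in tumors that regrew under continued dosing with the HSP90 inhibitor. No member was called by edgeR (0% of 16870 genes, 1635 of them at an unadjusted p under 0.05), DESeq2 (61 genes) or limma voom (0 genes), and 2 members had an unadjusted p under 0.05 by edgeR. The mean level of Erbb2 was 7387 CPM after recurrence (SD 3361, n = 3), where untreated primary tumors had 14978 CPM (SD 4815, n = 3). This is a log2 difference of -1.04 (SE 0.39, unadjusted p = 0.0259, edgeR adjusted p = 0.509). The groups overlapped, since recurrent replicate 3 was above primary replicate 1, and without recurrent 17-DMAG replicate 1 the difference was -0.69. Areg had 84, 4 and 16 counts against 4, 0 and 0 (unadjusted p = 0.0391, edgeR adjusted p = 0.509), and its fitted difference, 4.75 on the log2 scale, depends on the prior count. Areg was the 1 member of 10 whose groups did not overlap in CPM, against 15.1% of genes tested, and this separation came from scaling, since the counts tied at 4. Over the 10 members the edgeR adjusted p ran from 0.509 to 0.982, and 4 of 10 log2 differences were positive. The means of Egfr, Erbb3 and Tgfa were 149, 364 and 62.1 CPM in recurrent and 155, 365 and 64.9 CPM in primary tumors.

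The same comparison was made among mice on stavudine, with 2 recurrent and 3 primary tumors. Again no member was called by edgeR (0% of 16870 genes, 1696 of them at an unadjusted p under 0.05), DESeq2 (331 genes) or limma voom (0 genes), and 1 had an unadjusted p under 0.05. Of 10 members, 5 had groups that did not overlap, where 35.3% of all genes tested did. These were Egfr (-0.28, SE 0.17), Erbb3 (-0.67, SE 0.35) and Erbb4 (-1.29, SE 1.01), lower in recurrent tumors, and Hbegf (0.97, SE 0.67) and Nrg1 (4.87, SE 1.58), higher, as log2 differences. Some marker sums were also apart in this comparison. Fibroblast markers were at 1590 and 2075 CPM in recurrent against 307 to 773 CPM in primary tumors. Macrophage markers were at 394 and 410 against 173 to 200.0 CPM, and basal and myoepithelial markers at 132 and 387 against 55.0 to 121 CPM. Luminal epithelial markers were lower in recurrent tumors, at 2645 and 1665 against 2656 to 3015 CPM. The mean log2 CPM of the luminal markers overlapped (6.50 and 6.21 against 6.32 to 6.61). The part of these cell types in the members' differences was not tested. Erbb4 was at 26.8 and 39.3 CPM against 67.3 to 95.5 CPM, and its edgeR adjusted p was 0.649 in the fit with all tumors and 0.101 in the fit without recurrent 17-DMAG replicate 1, a tumor outside this comparison that enters the estimate of spread. Nrg1 had an unadjusted p of 0.0124 (edgeR adjusted p = 0.401), and its difference was 1.24 without recurrent 17-DMAG plus stavudine replicate 2. DESeq2 gave no adjusted p for Nrg1 in this comparison. Erbb2 differed by 0.11 (SE 0.43). Over the 10 members the edgeR adjusted p ran from 0.401 to 0.938, and 4 of 10 log2 differences were positive.

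Among recurrent tumors, stavudine was set against none (2 against 3 tumors). By edgeR no member was called (0% of 16870 genes, 1323 of them at an unadjusted p under 0.05), nor by DESeq2 (277 genes) or limma voom (0 genes). Erbb2 differed by 0.50 on the log2 scale (SE 0.43, edgeR adjusted p = 0.862). Nrg1 had an unadjusted p of 0.0378 (3.62, SE 1.501, edgeR adjusted p = 0.609), which became -0.02 on the log2 scale without recurrent 17-DMAG plus stavudine replicate 2. Ereg, with 4 and 2 counts against 6, 4 and 12, was the 1 member without overlap in CPM, against 21.5% of genes tested, and this separation came from scaling, since the counts tied at 4. Over the 10 members the edgeR adjusted p ran from 0.609 to 0.940, and 3 of 10 log2 differences were positive.

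Averaged over both water arms, the 5 recurrent tumors were compared with the 6 primary tumors. Here too no member was called by edgeR (0% of 16870 genes, 2296 of them at an unadjusted p under 0.05), DESeq2 (419 genes) or limma voom (0 genes), and the groups overlapped for all 10 members, as for all but 1.34% of genes tested. Nrg1 had the smallest unadjusted p, 0.0147, with a log2 difference of 3.06 (SE 1.03, edgeR adjusted p = 0.313), and stood at 1.26 without recurrent 17-DMAG plus stavudine replicate 2. Erbb2 differed by -0.46 (SE 0.29, edgeR adjusted p = 0.490). The largest edgeR adjusted p of the 10 members was 0.920, and 4 of 10 log2 differences were positive.

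Whether recurrence differed with stavudine was tested as an interaction. None of the members was called by edgeR (0% of 16870 genes, 1322 of them at an unadjusted p under 0.05), DESeq2 (189 genes) or limma voom (0 genes). Erbb2 had an interaction of 1.15 on the log2 scale (SE 0.58, edgeR adjusted p = 0.672), with recurrence differences of -1.04 without and 0.11 with stavudine. Areg, which had 0 to 89 counts per tumor, had an edgeR unadjusted p of 0.0372 (edgeR adjusted p = 0.608). The edgeR adjusted p of the 10 members ran from 0.608 to 0.961, and 4 of 10 interactions were positive. In the test for any difference among the 4 tumor groups, 0 members and 0% of 16870 genes were called by edgeR, while 1440 genes and 1 member, Nrg1, had an unadjusted p under 0.05. DESeq2 called 534 genes and limma voom 0, none of them a member, and the edgeR adjusted p of the 10 members ran from 0.532 to 0.960.

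Many of the members' extreme values fell in recurrent 17-DMAG replicate 1 and recurrent 17-DMAG plus stavudine replicate 2. Recurrent 17-DMAG replicate 1 was the lowest of 11 tumors for Erbb2, Erbb3 and Erbb4, the highest for Hbegf, second for Nrg1 and Areg, and lowest for Egf (4.49 CPM, against 18.9 to 122 CPM in the other tumors). In that tumor fibroblast markers summed to 6422 CPM, against 307 to 2075 CPM elsewhere, and macrophage markers to 693 CPM, with 8 of 10 above each other tumor. Luminal epithelial markers summed to 3128 CPM there, the highest of any tumor, with 5 of 10 above each other tumor. The part of these cells in the receptor levels was not tested. Recurrent 17-DMAG plus stavudine replicate 2 was the highest tumor for Nrg1 and Tgfa, the lowest for Egfr and Btc and the second lowest for Erbb3. Its luminal marker sum of 1665 CPM was the lowest of the tumors, and its skeletal muscle sum the highest, and their part was likewise not tested.

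**Figure D5:**
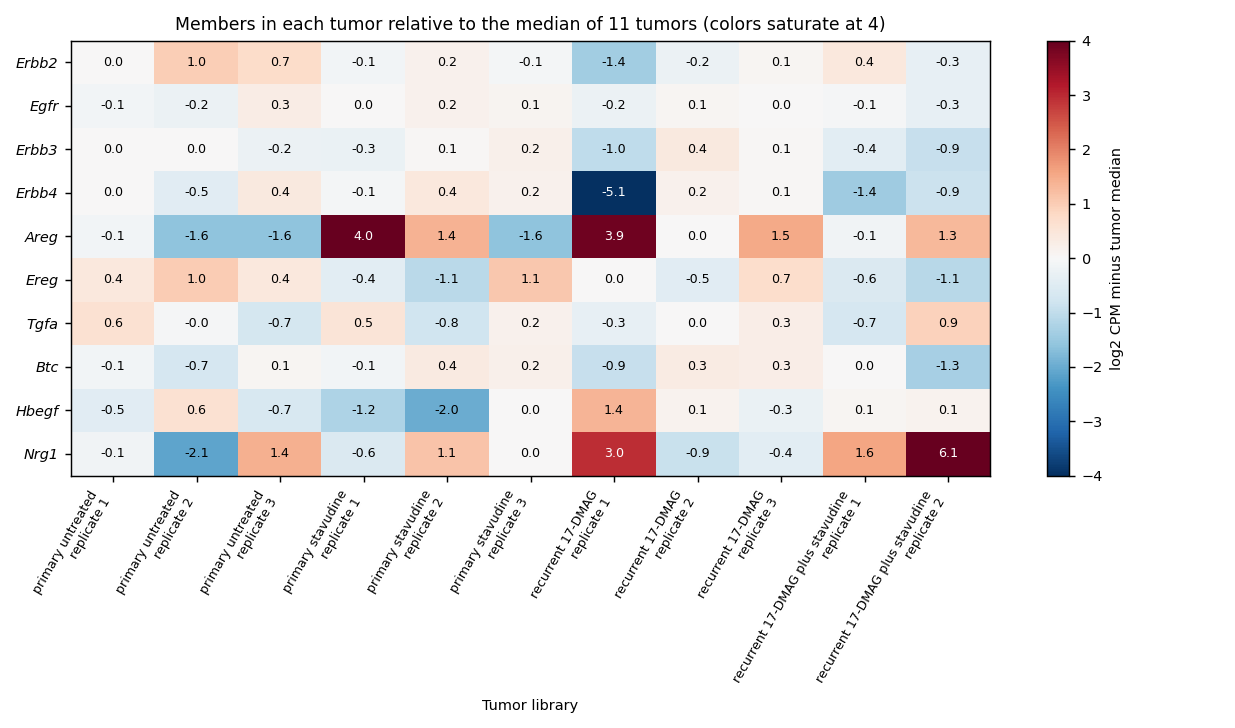
Difference of each member's log2 CPM from its median over 11 tumors (rows, members; columns, tumors), printed in each cell, red above and blue below the median. The strongest departures are Nrg1 in recurrent 17-DMAG plus stavudine replicate 2 (6.13) and Erbb4 in recurrent 17-DMAG replicate 1 (-5.06), while Egfr stays within 0.34 of its median.

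Covariation among members was examined over the 11 tumors in 45 pairs. After Benjamini-Hochberg adjustment over the pairs, 2 passed 0.05 by Pearson's r and 2 by Spearman's rho, and Egfr with Btc passed by both. By r, 8 pairs had an unadjusted permutation p under 0.05. The share of all gene pairs that reach such values in these tumors was not computed. These counts are therefore not set against a background. Egfr and its ligand Btc varied together, with Pearson's r = 0.84 (permutation p = 0.00052, adjusted p = 0.0234) and Spearman's rho = 0.85 (permutation p = 0.00132, adjusted p = 0.0297). Without the 2 tumors farthest from the median of Egfr, r was 0.93. Leaving out each tumor in turn gave r from 0.78 to 0.95, with an adjusted p under 0.05 in 6 of 11 subsets. The r of deviations from the group means, over all 11 tumors, was 0.81.

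Erbb3 and Nrg1 varied in opposite directions, with r = -0.82 (permutation p = 0.00206, adjusted p = 0.0464). Spearman's rho was -0.67 (permutation p = 0.0274, adjusted p = 0.205), and r was -0.51 without the 2 tumors farthest from the median of Erbb3, so this relation rested in part on those tumors. Its adjusted p stayed under 0.05 in 3 of 11 subsets that left out a tumor (0.0326 to 0.177 over all 11), and the r of deviations from the group means was -0.74. The receptors Egfr and Erbb4 had the highest rho of the 45 pairs at 0.90 (permutation p = 0.00045, adjusted p = 0.0203), while their r was 0.58 (permutation p = 0.0581, adjusted p = 0.218) and 0.68 without the 2 farthest tumors. Erbb3 with Btc (r = 0.81, permutation p = 0.00458, adjusted p = 0.0594) and Erbb3 with Erbb4 (r = 0.74, permutation p = 0.00528, adjusted p = 0.0594) followed, with r of 0.33 and 0.55 without the 2 farthest tumors. Erbb2 and Erbb4 had r = 0.69 (permutation p = 0.0562, adjusted p = 0.218), which was 0.04 without the 2 farthest tumors. No relation was tested within a single group, which held 2 or 3 tumors.

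The genes whose log2 CPM followed each receptor most closely over the 11 tumors, among 12684 other genes whose mean log2 CPM reached 1, are given as a description. For Erbb2 these were Fam193b (r = 0.97), Gsta3 (0.97), a glutathione transferase, and D030028A08Rik (0.96). For Egfr they were Zfp37 (0.96), Pdcd6 (0.95) and Xrn1 (0.95), which degrades RNA from its 5′ end. For Erbb3 they were Rnf39, Nynrin and Cnnm3 (each 0.96). For Erbb4 they were Fgd4 (0.99), Pccb (0.98), a subunit of a mitochondrial carboxylase, and Pik3c2g (0.98), a lipid kinase that ran from 0.741 to 40.6 CPM. Spearman's rho was 0.82 to 0.98 for these 12 genes, and for Erbb2 and Erbb4 recurrent 17-DMAG replicate 1 is the extreme point.

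Of the remaining EGF-family ligands, 3 of 5 passed the filter on low counts against glands, and 1 fell. Nrg4 was at 12.3 and 10.4 CPM in glands and at 1.497 to 3.70 CPM in tumors, a log2 difference of -2.27 (SE 0.26, edgeR adjusted p = 0.00121). Adipocyte markers were at 1009 and 1287 CPM in glands and 8.01 to 169 CPM in tumors, and their part in this fall was not tested. Egf was at 48.9 and 241 CPM in glands and at 81.0, 67.4 and 106, then 76.2, 122 and 56.4, then 4.49, 43.8 and 63.8, then 22.6 and 18.9 CPM in the tumor groups. Over both water arms Egf differed by -1.61 between recurrent and primary tumors on the log2 scale (SE 0.55, unadjusted p = 0.0152, edgeR adjusted p = 0.313). Nrg2 was at 17.1 and 5.64 CPM in glands and 14.9 to 36.5 CPM in tumors, and Epgn had 0 to 12 counts per library.

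Of 12 genes listed as brakes on ErbB signalling or regulators of receptor turnover, 2 rose and 1 fell in tumors against glands. Of all genes tested, 10.4% were called and 1.6% were called higher. Errfi1, which binds and inhibits the kinase domain of ErbB receptors, was at 133 and 72.2 CPM in glands and 89.9 to 420 CPM in tumors (1.17, SE 0.30, edgeR adjusted p = 0.0368). Socs5, which promotes loss of Egfr, was at 58.0 and 27.5 CPM in glands and 78.8 to 115 CPM in tumors (1.11, SE 0.26, edgeR adjusted p = 0.0240). Cblb, a ubiquitin ligase that acts on ErbB receptors, was at 64.9 and 79.5 CPM in glands and 28.7 to 57.9 CPM in tumors (-1.08, SE 0.19, edgeR adjusted p = 0.00800). The median log2 fold change was 0.01 over the 12 genes, which were not sorted by whether they lower or spare receptors. The calls of these genes, and those of Nrg4, Nck2 and Ikzf3, rest on 2 glands. How they held with a library left out is not given here, while both member calls were lost in some such fits.

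Of 17 adaptors and proximal signalling genes, 1 rose against glands, the adaptor Nck2 (1.72, SE 0.35, edgeR adjusted p = 0.0138), at 89.2 and 28.2 CPM in glands and 148 to 291 CPM in tumors, and the median over the 17 was 0.03. This is 1 call in 17, beside 10.4% of all genes tested. Of 5 genes of ligand shedding (Adam17, Adam10, Rhbdf1, Rhbdf2, Timp3), no gene was called by edgeR against glands (smallest adjusted p = 0.360), with a median of 0.06. Of the 6 neighbours of Erbb2 tested, Ikzf3 fell (-3.81, SE 0.66, edgeR adjusted p = 0.00732), at 42.4 and 3.71 CPM in glands, and lymphocyte markers summed to 204 CPM in gland 1, 7.07 CPM in gland 2 and 3.16 to 8.31 CPM in tumors, whose part was not tested. Among tumor groups no gene of these lists was called by edgeR. The smallest p of these lists was that of Errfi1 in recurrent tumors with stavudine against without (-1.29, SE 0.30, edgeR unadjusted p = 0.00160, edgeR adjusted p = 0.269). Nck2 followed in recurrent against primary tumors over both arms (0.44, SE 0.10, edgeR unadjusted p = 0.00180, edgeR adjusted p = 0.287). Errfi1 was at 164 and 89.9 CPM in recurrent tumors with stavudine and 219 to 420 CPM in the other tumors. Errfi1 also had a small p under stavudine in recurrent against primary tumors (-1.08, SE 0.29, edgeR adjusted p = 0.334) and in the interaction (-1.31, SE 0.38, edgeR adjusted p = 0.476).

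The other genes of these lists with the 3 smallest p of a comparison are named by that rank and were not called. For stavudine in primary tumors they were Plcg1, a phospholipase recruited by Egfr, at -0.42 (SE 0.15) on the log2 scale, the adaptor Grb10 at -0.57 (SE 0.24) and Ptpn12, a phosphatase, at -0.32 (SE 0.16), with an edgeR adjusted p of 1.00 each. For recurrence without stavudine they were Ubash3b at 0.70 (SE 0.26), Grb10 at -0.56 (SE 0.24) and Mien1 at -0.64 (SE 0.30), with edgeR adjusted p of 0.509, 0.509 and 0.510. For recurrence under stavudine they included Nck2 at 0.61 (SE 0.15) and Pik3cb, a catalytic subunit of PI3-kinase, at -0.69 (SE 0.22), with edgeR adjusted p of 0.313 and 0.393. Among recurrent tumors with stavudine against without they included Lrig1, which lowers ErbB receptor levels, at 0.70 (SE 0.23, edgeR adjusted p = 0.476) and Nck2 at 0.46 (SE 0.15, edgeR adjusted p = 0.479). Over both arms they included Stat3, a transcription factor, at 0.57 (SE 0.17, edgeR adjusted p = 0.293). In the interaction Lrig1 stood at 1.04 (SE 0.31, edgeR adjusted p = 0.479) and Pik3cb at -0.76 (SE 0.29, edgeR adjusted p = 0.591). In the test for any difference among tumor groups the edgeR adjusted p was 0.507 for Nck2, 0.527 for Errfi1 and 0.534 for Grb10.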

How the data were processed

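RNA of 13 samples was sequenced after ribosomal RNA depletion. The authors deposited raw read counts per gene symbol, not normalized, from reads aligned to GRCm38 with STAR and counted with featureCounts; the submitters' processing notes also name Subread 1.6.2 and bcl2fastq 2.20. The strand setting and the handling of multiply mapped reads were not given in the sources used here. No pair of libraries was identical.

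Counts were tested in R 4.3.3 with edgeR 4.0.16 (filterByExpr, TMM factors, robust quasi-likelihood test, two-sided), with Benjamini-Hochberg adjustment over all genes tested and calls at an adjusted p under 0.05. Tumors against glands used 13 libraries, the other comparisons 11 tumors, each group with its own mean. CPM values are scaled by TMM factors, and log2 CPM used a prior count of 2. Alternatives were DESeq2 1.42.0, limma voom (limma 3.58.1), RLE and upper-quartile factors, no filter, a table without milk, muscle and adipocyte genes, fits on the groups compared, the replicate number as a block, and leaving out each library. Correlations over tumors used 100000 permutations. Scripts were tested on simulated data. Lengths are exon unions of GENCODE vM21, and promoters are RefSeq sequences, of which those of 6 members were used here.

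All 10 members were tested in each comparison, and those not given singly are covered by the range of adjusted p and the count of positive differences. Of the other lists, genes are named where called or among the 3 smallest p of a comparison, with levels of all other ligands and neighbours of Erbb2. For likeness, the 3 genes with the highest r per receptor are named. The members and lists were chosen with earlier results of these data known. Deviations from group means were added after the data were seen.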

Additional observations from a re-analysis of the deposited data

How the results depend on the processing

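Against glands 2 members were called by edgeR. The count was 3 with DESeq2, 2 with RLE factors, upper-quartile factors and without milk, muscle and adipocyte genes, 1 with limma voom (Egfr) and with no filter (Tgfa), and 0 with primary untreated tumors alone, where the fold change of Erbb2 turned to 0.31. With a replicate block it was 0 and 371 genes were called in place of 1785. The r of deviations from group means was -0.29 to 0.22 over 15 same-numbered pairs of tumors and -0.35 to 0.36 over 30 other pairs. Deviations cancel out within groups of 2 or 3 tumors, so these values cannot exclude a pairing. Numbers were not taken as pairs. Leaving out each library gave 0 to 4 members, and log2 fold changes against glands from -0.0426 to 1.20 for Hbegf, -3.68 to 1.74 for Areg and -2.001 to 0.57 for Nrg1. It gave -0.33 to 0.43 for Erbb2 in recurrent against primary tumors under stavudine, -0.0177 to 5.91 for Nrg1 with stavudine against none in recurrent tumors, and 0 to 3 correlated pairs, 0 of them without primary untreated replicate 1, primary stavudine replicate 3, recurrent 17-DMAG replicate 1 or 2, or recurrent 17-DMAG plus stavudine replicate 2. Leaving out a recurrent 17-DMAG plus stavudine tumor leaves 1 in that group, assumed to vary like the others. Over all genes the count against glands was 3242 with DESeq2, 361 with primary untreated tumors alone, 535 without gland 2, 4255 without gland 1 and 3100 without recurrent 17-DMAG replicate 1, and in the other comparisons 17 to 534 with DESeq2 against 0. By edgeR these counts became 6 to 141 in 5 comparisons without recurrent 17-DMAG plus stavudine replicate 1 (141 for stavudine in recurrent tumors, 100 for recurrence under stavudine, 77 for the interaction, 37 for any difference, 6 over both arms). Without recurrent 17-DMAG replicate 1 they were 18 for recurrence under stavudine, 4 for any difference and 1 in 3 others. Recurrence without stavudine gave 1 without primary untreated replicate 1, and recurrence under stavudine gave 2 with the groups compared alone. No member was called among tumor groups under any of these alternatives. Of members' fold changes not given singly, 55 of 884 refits turned direction. Groups of 2 or 3 limit these tests, and counts of Areg and Ereg limit any statement on them.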
